A study of Mus musculus with 14 samples.

Results

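De novo fatty acid synthesis was described through 10 genes, Fasn, Acaca, Acacb, Acly, Scd1, Scd2, Elovl6, Me1, Thrsp and Acss2. The genes were listed by name as members of the pathway, with earlier results of these data known. They were among 18193 genes with a probe set that carried 1 gene symbol, and 27 probe sets measured them. The probe set brightest on average over the 14 arrays stood for its gene. Messenger RNA came from 3T3-L1 cells, a mouse preadipocyte line that becomes fat cells in culture, transduced with a SETD5 virus or with an empty virus. The SETD5 virus expressed V5-tagged mouse SETD5, a SET domain protein found with corepressors of transcription, from a weak viral promoter, and both arms were stably selected. The study worked with 1 SETD5 line of moderate expression unless it said otherwise, so each arm stood for 1 transduced line, and SETD5 could not be told apart from any other difference between the lines. Both arms received insulin, dexamethasone and isobutylmethylxanthine for the first 48 h and insulin alone afterward. RNA was taken at 0, 12, 24, 36, 48, 96 and 192 h and each virus had a single array at each hour. Hours therefore stood in for replicates, and nothing said that they came from separate cultures.

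Fat cells build fatty acids from citrate that leaves the mitochondria. ATP citrate lyase (Acly) splits it to acetyl-CoA, acyl-CoA synthetase short-chain family member 2 (Acss2) makes the same product from acetate, and acetyl-CoA carboxylase (Acaca in the cytosol, Acacb at the mitochondrial surface) turns it into malonyl-CoA. Fatty acid synthase (Fasn) joins these units into palmitate with NADPH, part of which malic enzyme (Me1) supplies, after which Elovl6 lengthens the chain and the stearoyl-CoA desaturases (Scd1 and Scd2) put in a double bond. Thrsp, known as Spot 14, is a small nuclear and cytosolic protein that accompanies lipogenesis. In differentiating preadipocytes this pathway belongs to the late program that insulin sustains through SREBP-1c, and carbohydrate through ChREBP.

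The 250 bases before the annotated transcription start are given for 4 members because Fasn, Thrsp and Acss2 differed between the viruses in one direction late in differentiation and Elovl6 in the other. RefSeq held such an entry for 8 of the 10 members (build GRCm38.p6). The Fasn stretch lies at chr11:120824548-120824797, - strand, that of Thrsp at chr7:97417551-97417800, - strand, that of Acss2 at chr2:155517793-155518042, + strand and that of Elovl6 at chr3:129532136-129532385, + strand. All are printed 5′ to 3′ on the strand of the gene, and capitals mark the letters CCAAT (bound by NF-Y) or GGGCGG (a GC box, bound by SP1) on either strand.
Fasn: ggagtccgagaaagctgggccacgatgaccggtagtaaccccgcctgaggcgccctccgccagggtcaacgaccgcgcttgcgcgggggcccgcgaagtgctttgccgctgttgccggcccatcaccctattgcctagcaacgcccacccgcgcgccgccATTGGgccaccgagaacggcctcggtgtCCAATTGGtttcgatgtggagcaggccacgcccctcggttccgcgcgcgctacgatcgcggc
Thrsp: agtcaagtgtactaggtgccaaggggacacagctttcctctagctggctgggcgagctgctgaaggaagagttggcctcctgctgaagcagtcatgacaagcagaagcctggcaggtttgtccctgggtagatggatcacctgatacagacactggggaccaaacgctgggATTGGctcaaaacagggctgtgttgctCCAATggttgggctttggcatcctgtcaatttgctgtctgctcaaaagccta
Acss2: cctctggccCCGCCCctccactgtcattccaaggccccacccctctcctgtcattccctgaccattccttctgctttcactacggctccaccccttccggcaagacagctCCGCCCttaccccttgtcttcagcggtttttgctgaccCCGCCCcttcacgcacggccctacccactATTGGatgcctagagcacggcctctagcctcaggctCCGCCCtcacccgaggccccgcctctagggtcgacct
Elovl6: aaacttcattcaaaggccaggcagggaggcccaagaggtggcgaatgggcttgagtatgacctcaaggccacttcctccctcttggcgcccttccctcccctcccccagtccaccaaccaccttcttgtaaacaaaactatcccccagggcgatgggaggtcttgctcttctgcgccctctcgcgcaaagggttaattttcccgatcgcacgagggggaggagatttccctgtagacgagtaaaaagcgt
Counted from the start, the first CCAAT match of Fasn ran from -90 to -86, and the pair at -62 to -58 and -59 to -55 overlapped because they share letters on opposite strands. Thrsp had matches at -79 to -75 and at -52 to -48, and Acss2 had one at -73 to -69 beside 4 GC boxes. CCAAT was found in 4 of the 8 stretches (Fasn, Acacb, Thrsp and Acss2), against 34.5% of 27025 mouse promoters of the same length, and the GC box in 3 of 8 (Acly, Me1 and Acss2), against 32.9%. In the Me1 stretch 2 of its GC boxes were adjacent. None of the 8 held TCACNCCAC for SREBP, CACGTG for E-box factors, TTGCNNAA for C/EBP, or the direct repeats of the PPAR and LXR response elements searched without mismatch, which stood in 1.04%, 6.05%, 9.55%, 0.037% and 0.0111% of all promoters. These counts describe letters in 1 window and say nothing of binding.

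Intensities are linear array values scaled by the authors, and differences are log2 of the SETD5 virus minus log2 of the empty virus at the same hour, each after adding 16 to the intensity. Folds are on that scale, which understates the change of dim genes. A gene was tested where at least 3 arrays read 50 or higher, which 8682 genes did, among them 9 of the 10 members. Thrsp passed on 4 arrays only, those of 96 and 192 h of both viruses. Acacb never reached 50: its main probe set read 3.2 to 19.2 in SETD5 cells, against 1.7 to 25.3 in empty virus cells, so its values are given without a test. Arrays were alike in brightness, with a median intensity of the tested genes from 188 to 208. The probe set of Setd5 averaged 302 in SETD5 cells, against 309 in empty virus cells (-0.03 over all hours, adjusted p = 0.788), and whether it covers the viral transcript is not known.

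Over the first day no member was called between the viruses. Across 0, 12 and 24 h the main probe sets of the 9 tested members gave 0 calls (limma, adjusted p under 0.05), as against 0.00% of all tested genes called lower and 0.0230% called higher. At an unadjusted p under 0.05 this comparison gave 540 of the 8682 genes and no member. The early differences of the members ran from -0.13 for Scd1 to 0.17 for Elovl6, and the dimmest tested probe set of Scd2 gave -0.69 (adjusted p = 0.473). Each arm met the hormone mixture with Scd1, the desaturase that makes oleate and palmitoleate: Scd1 read 597 at 0 h and 2942 at 12 h in SETD5 cells, against 628 and 3186 in empty virus cells. Over both viruses its difference from 0 h at 12 h was 2.29 ± 0.44 (SE, n = 2 arrays per hour, adjusted p = 0.00198), beside 19.9% of all tested genes called higher and 27.9% called lower at that hour. It was called above 0 h at every later hour, with 1.72 at 24 h, 2.16 at 36 h and 2.18 at 48 h, where 38.4%, 29.4% and 34.2% of all genes were called in either direction (16.4%, 12.4% and 14.4% higher, 21.9%, 17.0% and 19.9% lower). At 96 h it had 2.06, where 6.12% of all genes were called higher. The other probe set of Scd1 gave 1.20 ± 0.83 at 12 h (SE, adjusted p = 0.265) and was called at none of the hours. Its log2 change from 0 to 12 h was 1.20 in SETD5 cells and 1.20 in empty virus cells. No other member was called at 12 h. Fasn read 317 at 0 h and 653 at 12 h in SETD5 cells, against 250.1 and 715 in empty virus cells. These were log2 changes of 1.01 and 1.46, beside an SE of 0.60. The error of this comparison pools the spread of the virus difference over all hours, including the late ones when the arms parted. A missing call at 12 h therefore does not measure disagreement between the arms at that hour.

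**Figure D1:**
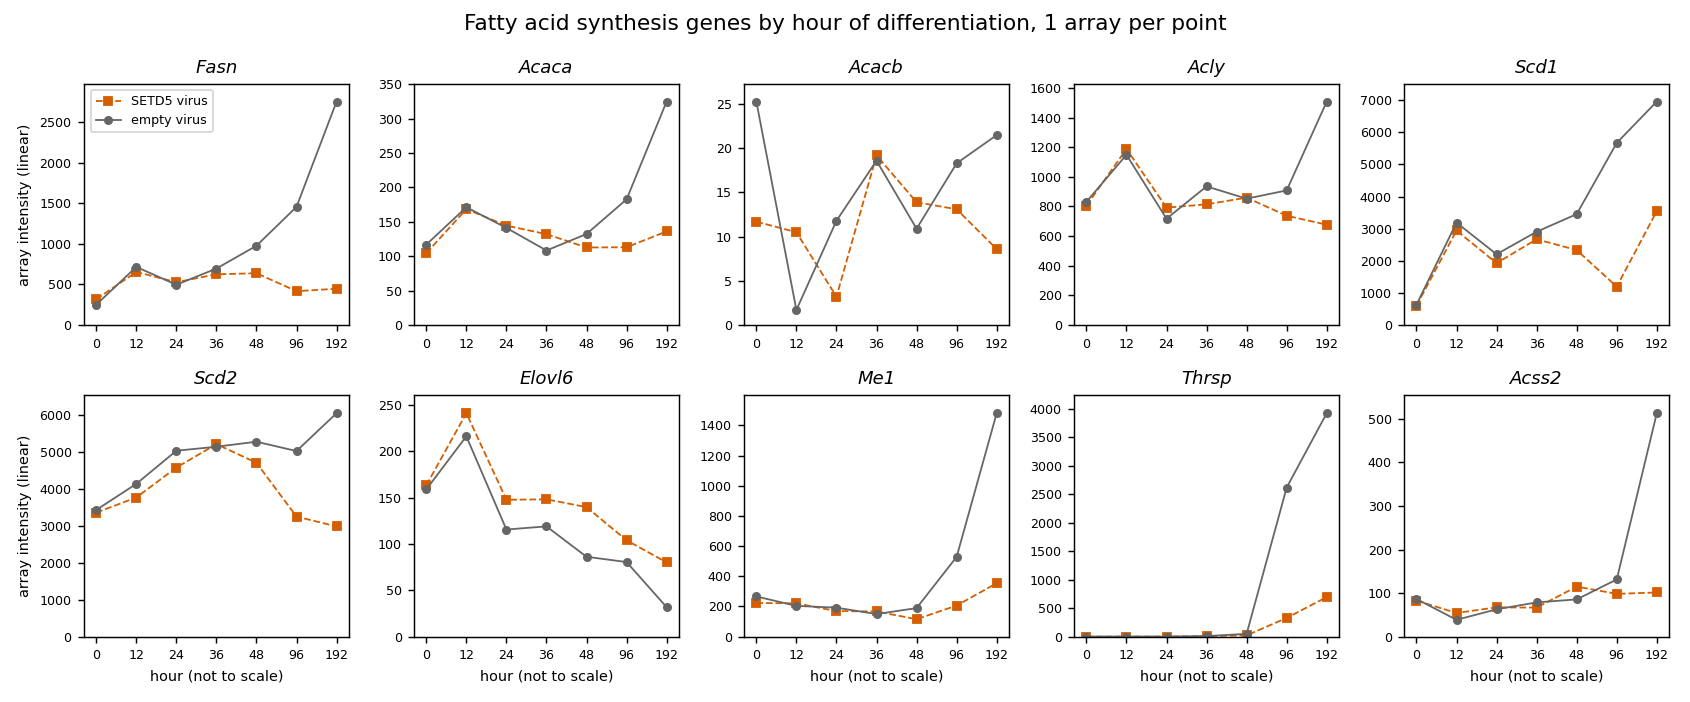
Array intensity (y axis, linear, from 0) of the 10 members by hour after the mixture was added (x axis, unevenly spaced hours drawn at equal steps), 1 array per point, orange squares joined by dashes for SETD5 cells and grey circles joined by solid lines for empty virus cells. At 192 h Fasn stood at 447 in SETD5 cells, against 2751 in empty virus cells, while Elovl6 stood at 80.1 and 31.8.

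The arms parted most at 96 and 192 h, when insulin alone had replaced the hormone mixture. At 48 h the differences already ran from -0.78 (Thrsp) to 0.61 (Elovl6), with a median of -0.20, against -0.003 over all tested genes. Over 96 and 192 h all 9 tested members were called (limma with hour as a block, n = 2 hours, 4 residual degrees of freedom). This window was an alternative to the main late window of 36, 48, 96 and 192 h, where 5 were called. Its errors and p rest on a spread pooled over all 7 hours, early ones included, and do not measure agreement between the 2 late hours. Scd1, for instance, had -2.23 at 96 h and -0.97 at 192 h, with an error of 0.23. Of the 9 members, 8 were lower in SETD5 cells, where 11.4% of all tested genes were called lower, and Elovl6 was higher, where 15.8% were called higher. The median difference of the members was -1.27, against 0.08 over all tested genes. Fewer fat cells in the culture and less RNA per cell cannot be told apart in such bulk samples. The adipocyte markers moved as well: the 6 of 8 with a probe set summed to between 36.5 and 13185 in SETD5 cells and between 34.4 and 25832 in empty virus cells over the hours, the highest sum of each at 192 h. At that hour Adipoq read 5261 and Cidec 499 in SETD5 cells, against 7276 and 4115 in empty virus cells. The 7 preadipocyte and fibroblast markers with a probe set summed to 21364 in SETD5 cells, against 17516 in empty virus cells at 192 h. The part of either in the results was not tested. Macrophage, endothelial, epithelial and muscle markers, 18 in all, passed the filter in 0 cases.

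Fasn, the synthase itself, was called lower with a large difference. With SETD5 it read 317, 653, 526, 624, 637, 416 and 447 at 0, 12, 24, 36, 48, 96 and 192 h, and with the empty virus 250.1, 715, 495, 695, 975, 1454 and 2751. Up to 24 h the arms crossed, and from 36 h on the SETD5 arm was lower at every hour. The SETD5 arm peaked at 12 h, the empty virus arm at 192 h. Fasn was 4.51-fold lower in SETD5 cells over 96 and 192 h (-2.17 ± 0.19, SE, n = 2 hours, adjusted p = 9.02e-05) and ranked 21st from the lowest of 8682 genes. Its gain of intensity between 0 and 192 h with SETD5 was 5.19% of that with the empty virus.

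Thrsp, the lipogenic accessory protein, was almost silent in both arms until 36 h. Its intensities at the 7 hours were 0.4, 0.4, 1.0, 8.5, 21.8, 328 and 694 in SETD5 cells, against 0.4, 1.6, 0.7, 9.4, 49.1, 2616 and 3920 in empty virus cells. Both arms were highest at 192 h, and the SETD5 arm was the lower one from 36 h on. Over both viruses the difference from 0 h was 5.86 at 96 h and 6.67 at 192 h, given as a description because the gene passed the filter only through these hours. Thrsp was 6.51-fold lower in SETD5 cells over 96 and 192 h (-2.70 ± 0.17, adjusted p = 2.37e-05), the 4th lowest of 8682 genes, and its other tested probe set gave -3.09 (adjusted p = 3.73e-05). Its gain between 0 and 192 h was 17.7% of that of the empty virus arm.

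Acaca, which commits acetyl-CoA to the pathway, read 104, 168, 145, 132, 113, 113 and 136 in SETD5 cells, against 117, 171, 141, 108, 132, 183 and 325 in empty virus cells. The arms crossed up to 36 h and separated at 96 and 192 h. Acaca was 1.86-fold lower in SETD5 cells over the last pair of hours (-0.89 ± 0.15, adjusted p = 0.00278). Its paralog Acacb, which limits fatty acid oxidation, had a log2 difference of -0.24 at 96 h and -0.61 at 192 h, in the range under the filter where the offset weighs most.

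Acly, the source of cytosolic acetyl-CoA from citrate, read 806, 1188, 792, 814, 860, 737 and 677 in SETD5 cells, against 831, 1149, 717, 935, 853, 908 and 1508 in empty virus cells. Only the 192 h array of the empty virus left the range of the other arm. The gene was 1.64-fold lower in SETD5 cells over 96 and 192 h (-0.72 ± 0.17, adjusted p = 0.0131). This probe set is of a type whose probes may also bind other transcripts, and the other 2 tested probe sets of Acly gave -0.78 and -0.96 (adjusted p = 0.00644 and 0.00601).

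Acss2, which feeds acetate into the same pool, read 82.7, 54.3, 67.3, 66.6, 115, 98.2 and 101 in SETD5 cells, against 86.5, 38.6, 62.7, 78.6, 85.5, 131 and 513 in empty virus cells. A single array, the empty virus at 192 h, stood far above the rest. Its difference over 96 and 192 h was -1.27 ± 0.32 (adjusted p = 0.0160), but -0.37 at 96 h and -2.17 at 192 h, and with no filter on dim genes it was not called (adjusted p = 0.0536). The other tested probe set gave -1.35 (adjusted p = 0.0195).

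Me1, the cytosolic malic enzyme that yields NADPH, read 223, 221, 169, 167, 115, 206 and 354 in SETD5 cells, against 266, 204, 192, 150, 189, 528 and 1481 in empty virus cells. Both arms had their highest value at 192 h, and the SETD5 arm was the lower one from 48 h on. Me1 was 3.15-fold lower in SETD5 cells over 96 and 192 h (-1.66 ± 0.20, adjusted p = 0.000542). Its gain between 0 and 192 h was 10.8% of that of the empty virus arm, and 12.4% by the other tested probe set, which gave a difference of -1.69 (adjusted p = 0.00141).

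The desaturase Scd1 read 597, 2942, 1926, 2669, 2333, 1194 and 3547 in SETD5 cells, against 628, 3186, 2202, 2903, 3452, 5668 and 6957 in empty virus cells. The SETD5 arm was the lower one at all 7 hours, with a trough at 96 h that the empty virus arm did not have. Scd1 was 3.03-fold lower in SETD5 cells over 96 and 192 h (-1.60 ± 0.23, adjusted p = 0.00125). Its other probe set, dimmer on every array, read 72.6 and 131 at 96 and 192 h with SETD5 against 727 and 1816 with the empty virus, a difference of -3.35 ± 0.17 (adjusted p = 1.97e-05). At 192 h the log2 differences of these probe sets were -0.97 and -3.64, and the gain since 0 h with SETD5 was 46.6% or 3.25% of that with the empty virus, so the size of the Scd1 difference depended on the probe set.

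Scd2, the desaturase isoform that preadipocytes already express, read 3360, 3770, 4581, 5215, 4711, 3253 and 2986 in SETD5 cells, against 3432, 4140, 5037, 5146, 5282, 5028 and 6056 in empty virus cells. The SETD5 arm peaked at 36 h and the empty virus arm at 192 h. Scd2 was 1.77-fold lower in SETD5 cells over 96 and 192 h (-0.82 ± 0.12, adjusted p = 0.00148), and its other 2 probe sets gave -1.34 and -1.94 (adjusted p = 0.000331 and 5.81e-05). The one at -1.94, which reached 50 on 8 of the 14 arrays, was lower in SETD5 cells at all 7 hours. It read 23.8 in SETD5 cells, against 50.5 in empty virus cells at 0 h (-0.74), and 35.4 against 83.6 at 24 h (-0.95), so part of its difference was there before 96 h. Scd1 and Scd2 are close paralogs, and signal that one transcript gives on the other's probes cannot be told apart here. The virus effect of Scd1 minus that of Scd2 averaged -0.31 ± 0.59 over 7 hours (SD, exact sign-flip permutation test, two-sided, p = 0.109, where 7 hours allow no p below 0.0156). With the pair of Acaca and Acacb, which is not given because Acacb stayed under the filter, the p adjusted over 2 pairs was 0.219. The difference was -1.61 at 96 h and 0.05 at 192 h.

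Elovl6, which lengthens palmitate to stearate, ran the other way. It read 163, 241, 148, 148, 140, 104 and 80.1 in SETD5 cells, against 159, 216, 116, 119, 86.2, 80.5 and 31.8 in empty virus cells. The SETD5 arm was the higher one at all 7 hours, and both arms were highest at 12 h and lowest at 192 h. By the other tested probe set SETD5 cells read lower at 12 h (125, against 139 in empty virus cells) and higher at the other hours. Elovl6 fell over time in both viruses together, by 0.72 at 96 h and by 1.39 at 192 h on the log2 scale relative to 0 h (adjusted p = 0.0374 and 0.00160, beside 9.53% and 12.3% of all genes called lower). It was 1.58-fold higher in SETD5 cells over 96 and 192 h (0.66 ± 0.16, adjusted p = 0.0146). The other tested probe set gave 0.35 and was not called (adjusted p = 0.132), and at 192 h the empty virus value of the main one was under the filter of 50.

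**Figure D2:**
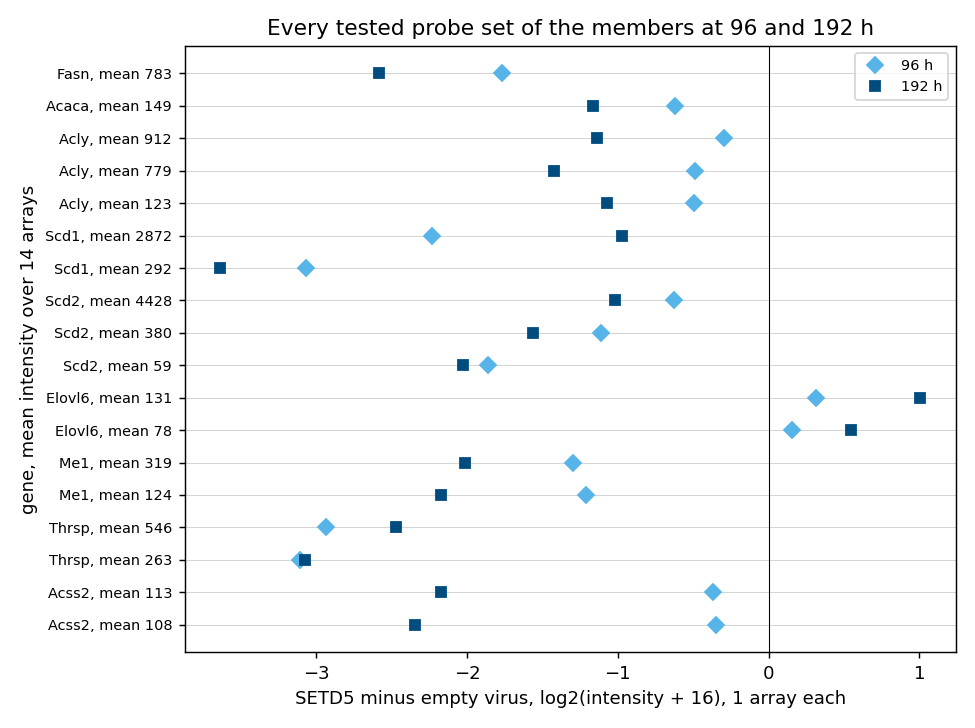
Log2 difference, SETD5 virus minus empty virus (x axis), of each of the 18 tested probe sets of the members (y axis, gene with its mean intensity over 14 arrays), at 96 h (light diamonds) and 192 h (dark squares), 1 array per virus and hour. The 16 probe sets of the other genes lie below 0 at both hours and the 2 of Elovl6 above it, and for Scd1 the points at 192 h are -0.97 and -3.64.

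Without the 192 h pair of arrays the 96 h pair alone carried the window. Then 5 of the 9 members were called, and Acaca (-0.62, adjusted p = 0.0616), Acly (-0.29, 0.262), Acss2 (-0.37, 0.315) and Elovl6 (0.31, 0.280) were not. Without any other single hour all 9 stayed called. With hour left out of the model as a block, none was called (lowest adjusted p 0.0516, for Thrsp), although the differences were the same. No share of all genes called is given for these refits, so the counts cannot be set against a general loss of calls.

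Each late hour was also read on its own. At 96 h 8 of 9 members were lower in SETD5 cells, and 4 of them (Fasn, Scd1, Me1 and Thrsp) by over 2-fold, as were 1.67% of all tested genes, while none was higher by that much, against 0.714%. At 192 h 8 were lower and 7 of them by over 2-fold, against 4.52% of the genes, and Elovl6 was higher by over 2-fold, against 2.63%. Scd1 was the member short of 2-fold at 192 h (1.96-fold). At 0, 12, 24, 36 and 48 h none passed 2-fold in either direction, where 0.0576%, 0.0691%, 0.230%, 0.230% and 0.415% of all genes were lower and 0.0230%, 0.104%, 0.138%, 0.150% and 0.461% higher by that much. These single hours have no replicate and no test.

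**Figure D3:**
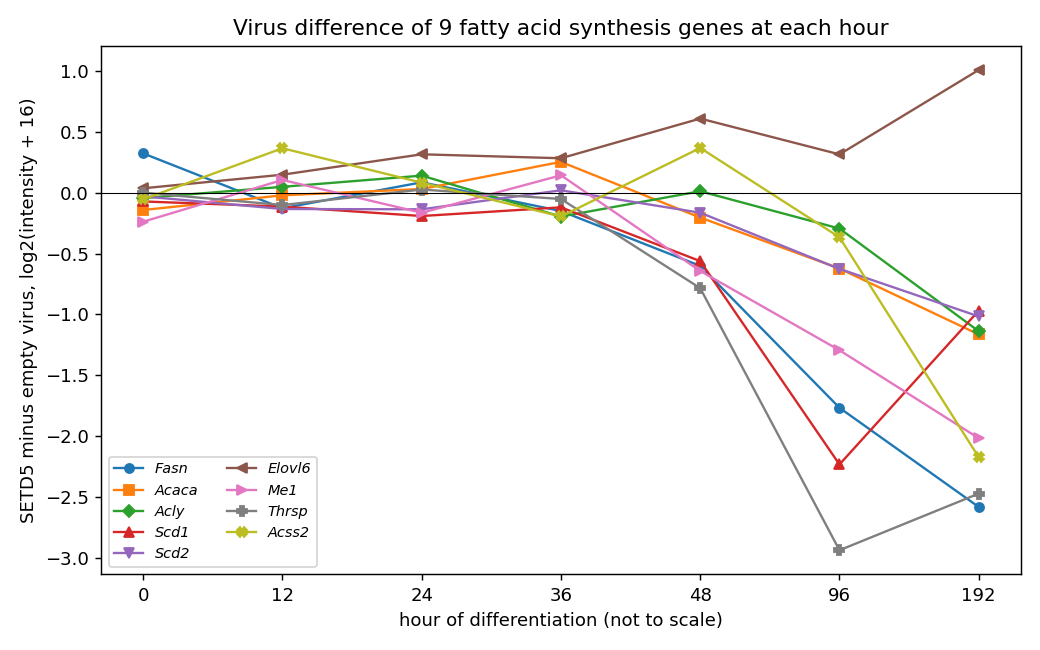
Log2 difference, SETD5 virus minus empty virus (y axis, intensity with 16 added), of the 9 tested members at each hour (x axis, not to scale), 1 colored line per gene and 1 array per virus and hour. Up to 36 h the lines stay between -0.24 and 0.36, and at 192 h they run from -2.58 (Fasn) to 1.01 (Elovl6).

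The window of 36 and 48 h, before the mixture was withdrawn or at that point, gave another picture. None of the 9 members was called there, when 0.484% of all genes were called lower and 0.968% higher, and 1390 genes had an unadjusted p under 0.05. The differences ran from -0.42 for Thrsp to 0.45 for Elovl6. Fasn had -0.38 ± 0.19 (adjusted p = 0.383), Me1 -0.25 ± 0.20 (0.611) and Acaca 0.02 ± 0.15 (0.960). The virus effect itself grew between these windows for Fasn (-1.80 ± 0.27, adjusted p = 0.0162) and Me1 (-1.40 ± 0.29, 0.0349), beside 1.79% of all genes called in that direction. Apart from Thrsp, the other 6 were not called. Thrsp had -2.29, given as a description because it passed the filter only through 96 and 192 h and was dim before. Against the early hours, 6.19% of genes were called in that direction. The effect at 96 and 192 h was larger than there for Fasn (-2.27), Acaca (-0.85), Scd1 (-1.47), Scd2 (-0.72) and Me1 (-1.56). Their adjusted p lay between 0.000938 and 0.0252. Thrsp had -2.68 against the early hours, a description for the same reason. Both contrasts share the 96 and 192 h arrays.

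**Figure D4:**
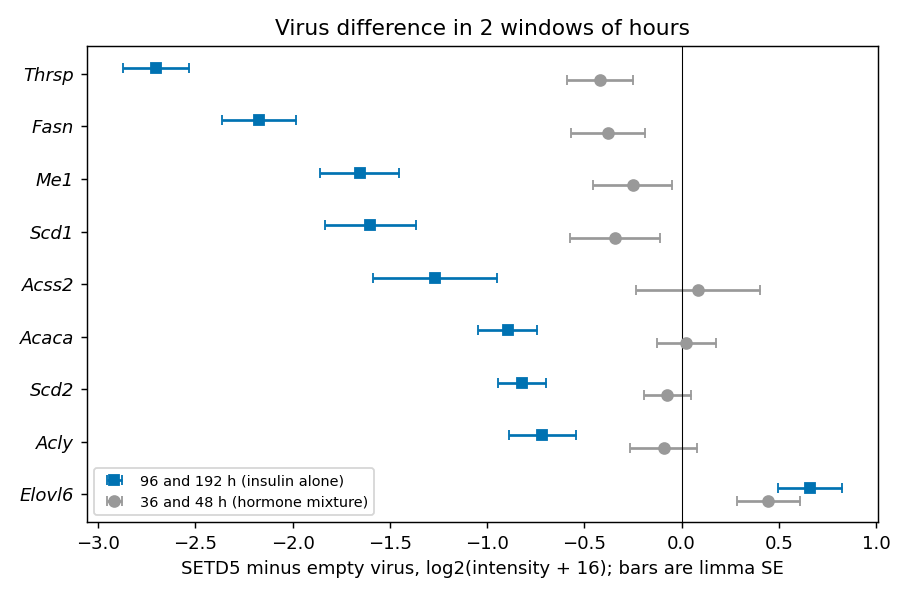
Virus difference with its limma standard error (x axis, log2, SETD5 minus empty virus) of the 9 tested members (y axis), over 96 and 192 h as blue squares and over 36 and 48 h as grey circles, 2 hours per point. The blue points run from -2.70 (Thrsp) to 0.66 (Elovl6), and the grey ones from -0.42 to 0.45.

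In the main late window, which pools 36, 48, 96 and 192 h, 5 members were called. Fasn (-1.27 ± 0.32, adjusted p = 0.0337), Scd1 (-0.97 ± 0.26, 0.0439), Me1 (-0.95 ± 0.27, 0.0491) and Thrsp (-1.56 ± 0.39, 0.0329) were lower in SETD5 cells (limma, n = 4 hours), where 4.56% of all genes were called lower. Elovl6 was higher (0.55 ± 0.12, adjusted p = 0.0224), where 7.43% were called higher. Acaca (-0.43, adjusted p = 0.140), Acly (-0.40, 0.117), Scd2 (-0.45, 0.0766) and Acss2 (-0.59, 0.236) were not called. Of the other tested probe sets, those of Scd1 (-1.97, 0.0277), Thrsp (-1.70, 0.0453) and Elovl6 (0.45, 0.0378) were called, as was the dimmest of Scd2 (-1.30, 0.0108), while the remaining 5, among them that of Me1 (-0.79, 0.141), were not. The calls of the main probe sets were fragile: Fasn, Scd1, Me1 and Thrsp each lost theirs without the pair of 0, 12, 24, 48, 96 or 192 h, with adjusted p up to 0.135, 0.0915, 0.170 and 0.125, and Elovl6 without that of 48 h (0.0725). Without the 36 h pair Acaca (-0.66, 0.0204) and Scd2 (-0.60, 0.0208) were called too. The late effect minus the early effect was called for none of the 9, and for 0.0115% of all genes in each direction, with 1090 genes at an unadjusted p under 0.05. Over all 7 hours no main probe set of a member was called either, when 0.887% of genes were called lower and 2.73% higher (3.62% in all), with 2046 genes at an unadjusted p under 0.05. The dimmest tested probe set of Scd2 was called there (-1.04, adjusted p = 0.0164).

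Within each arm the course after 48 h can be read side by side. With SETD5, 3 of the 9 members gained intensity and 6 lost it between 48 and 96 h (median log2 change -0.22), while over all tested genes 50.6% gained. With the empty virus 7 gained and 2 lost (median 0.54), while 48.3% of all genes gained. Between 0 and 192 h the median change of the members was 0.34 in SETD5 cells, against 2.37 in empty virus cells. For Fasn the ratio of 192 h to 0 h was 1.39 in SETD5 cells and 10.4 in empty virus cells, for Acss2 1.19 and 5.16, and for Me1 1.55 and 5.31. Over both viruses 192 h differed from 0 h for Fasn (1.93, adjusted p = 0.0466), Scd1 (2.99, 0.00176) and Me1 (1.52, 0.0396) upward, where 7.30% of all genes were called higher, and for Elovl6 downward (19.6% in either direction). The late against the early hours within an arm gave no called member in either arm, with 0.184% of all genes called in SETD5 cells (0.0691% higher, 0.115% lower) and 3.04% in empty virus cells (1.82% higher, 1.22% lower), and 1091 and 1646 genes at an unadjusted p under 0.05. In this comparison the hours of a window stood in for replicates, so a rise or fall inside a window counted as spread. The absence of a call does not show that a member stayed level.

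Several transcription factors above the pathway were lower as well. Of 15 tested genes of lipogenic transcription factors and their control, 5 were called lower over 36 to 192 h and 0 higher, and 7 and 0 over 96 and 192 h. Over all tested genes 4.56% were called lower and 7.43% higher in the late window, and 11.4% and 15.8% over 96 and 192 h. The list had a median late difference of -0.21 against 0.04 over all tested genes. Srebf1, which encodes SREBP-1, the insulin-driven activator of these genes, read 148, 154, 234, 417, 324, 209 and 201 in SETD5 cells, against 141, 184, 339, 533, 533, 369 and 451 in empty virus cells. Its late difference was -0.73 ± 0.13 (adjusted p = 0.0106), and the SETD5 arm was the lower one from 12 h on. Pparg, the central factor of fat cell formation, differed by -2.09 over 96 and 192 h (adjusted p = 0.000295), the coactivator gene Ppargc1b by -1.68 (0.000245) and Cebpa by -1.62 (0.00133). The fifth late call was Rxra, the partner of PPARγ and LXR (late difference -0.41, adjusted p = 0.0225), named after its value was seen. Insig1, which holds SREBPs in the endoplasmic reticulum and is itself one of their targets, was at 101 to 253 in SETD5 cells, against 71.7 to 1334 in empty virus cells, and differed by -1.81 over 96 and 192 h (adjusted p = 0.000519). Mlxipl, which encodes ChREBP, and Nr1h3, which encodes LXRα, were under the filter, with 7.9 and 29.2 at 192 h in SETD5 cells, against 53.4 and 123 in empty virus cells.

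Transcripts of genes listed for carbon and NADPH supply were lower too for most of those tested, while supply itself was not measured. Of 12 tested genes, 4 were called lower over 36 to 192 h and 9 over 96 and 192 h, with 0 higher in both, beside 4.56% and 11.4% of all tested genes called lower and 7.43% and 15.8% higher. The median late difference was -0.47, against 0.04 over all tested genes. Pcx, pyruvate carboxylase, which refills the citrate pool, read 105, 213, 460, 771, 909, 506 and 503 in SETD5 cells, against 95.6, 221, 514, 882, 1366, 1645 and 2876 in empty virus cells. The SETD5 arm was the lower one from 12 h on, with the widest gap at 192 h, and Pcx differed by -2.07 over 96 and 192 h (adjusted p = 8.57e-05). Slc25a1, the carrier that exports citrate, differed by -1.40 (adjusted p = 0.000223), Slc25a10, the dicarboxylate carrier, by -1.73 (0.000245), and Slc2a4, the insulin-responsive glucose transporter GLUT4, by -1.85 (0.000156). Over 36 to 192 h Pcx was called (-1.23, adjusted p = 0.0315), while Slc25a1 (0.0694), Slc25a10 (0.0726) and Slc2a4 (0.0661) were not. The other calls over 36 to 192 h, named after their values were seen, were Cs (citrate synthase, -0.53), Mdh1 (malate dehydrogenase, -0.58) and Me2 (mitochondrial malic enzyme, -0.36).

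**Figure D5:**
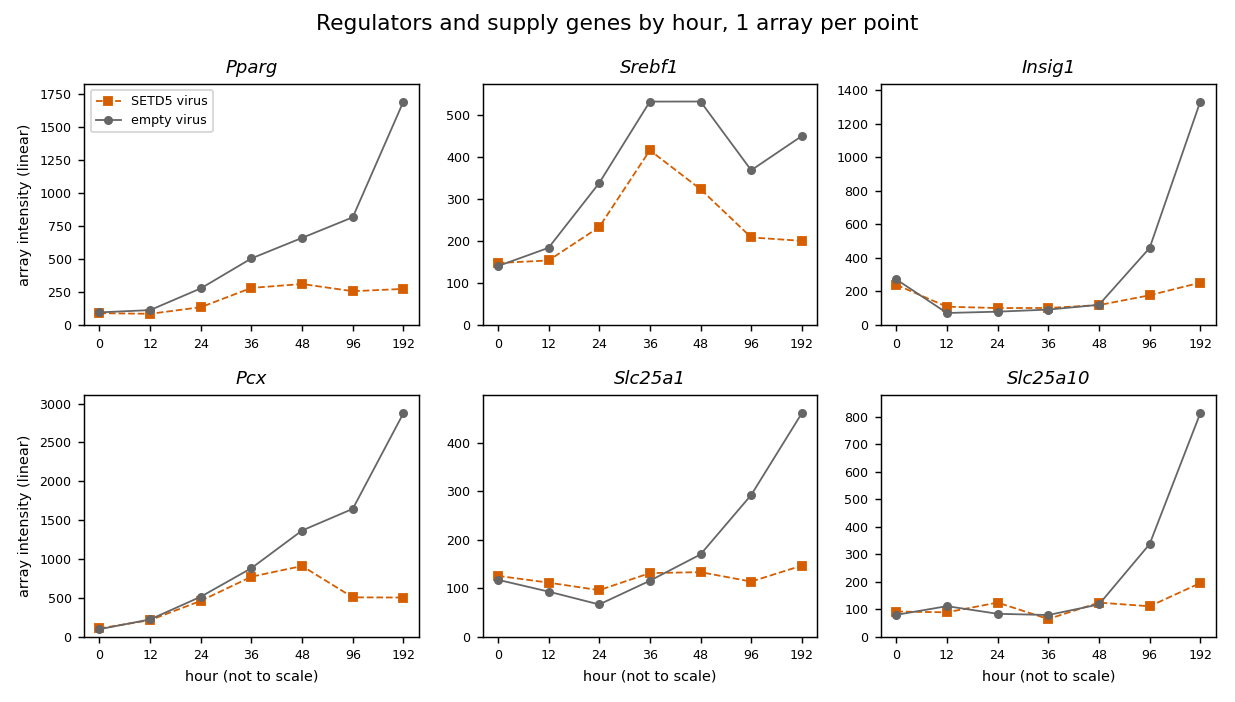
Array intensity (y axis, linear, from 0) of 3 regulators (Pparg, Srebf1, Insig1) and 3 supply genes (Pcx, Slc25a1, Slc25a10) by hour (x axis, not to scale), 1 array per point, orange squares joined by dashes for SETD5 cells and grey circles joined by solid lines for empty virus cells. At 192 h Insig1 stood at 253 in SETD5 cells, against 1334 in empty virus cells, and Slc25a1 at 147 and 462.

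The genes that control the carboxylases and load cofactors showed no call. Of 10 tested, 0 were called in either direction in both windows, beside 12.0% of all tested genes in the late window and 11.4% lower and 15.8% higher over 96 and 192 h, and the median difference over 96 and 192 h was 0.09, against 0.08 over all tested genes. Prkab2, a subunit of the kinase AMPK that inactivates acetyl-CoA carboxylase, had 0.44 (adjusted p = 0.0644), and Aasdhppt, which puts the phosphopantetheine arm on fatty acid synthase, had -0.13 (0.427). Of 14 further genes of elongation and desaturation tested, 2 were called lower and 1 higher in the late window (4.56% and 7.43% of all tested genes), and 4 lower and 1 higher over 96 and 192 h (11.4% and 15.8%), with a median of -0.29 against 0.08 over all tested genes. Hacd2 (-0.98, adjusted p = 0.000730) and Hsd17b12 (-0.91, 0.000657), a dehydratase and a reductase of the elongation cycle that Elovl6 opens, were lower. Hacd4, another dehydratase, was higher (0.70, 0.0112). Of 3 tested acyl-CoA synthetases, which activate free fatty acids, 1 was called lower and 1 higher over 96 and 192 h beside the same shares: Acsl3 was lower (-1.11, 0.0223) and Acsl5 higher (0.48, 0.0199), and Acsl4 had 0.25 (0.301). Acsl3 read 96.2 in SETD5 cells, against 421 in empty virus cells at 192 h, but 78 against 95.8 at 96 h. Over 36 to 192 h Acsl3 was not called (-0.35, adjusted p = 0.499), while Acsl5 was (0.35, 0.0469).

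Mitochondria carry a fatty acid synthesis pathway of their own, which makes the precursor of lipoic acid. Of its 7 tested genes, 1 was called lower over 36 to 192 h and 6 over 96 and 192 h, with 0 higher in both, beside 4.56% and 11.4% of all tested genes called lower and 7.43% and 15.8% higher (median -0.61 over 96 and 192 h, against 0.08 over all tested genes). Ndufab1, the mitochondrial acyl carrier protein, read 849 with SETD5 at 192 h against 1912 with the empty virus (-0.98 over 96 and 192 h, adjusted p = 0.00156). Lias, lipoic acid synthetase, differed by -0.85 (0.00373) and Oxsm, the ketoacyl synthase, by -0.65 (0.0230), while Mecr, the enoyl reductase, was not called (-0.50, 0.0621).

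An average course of the members was taken from their standardised profiles over the 14 arrays, as a description. Each tested member, Elovl6 included, is part of that average, which raises its own r but not that of other genes. Among the members Fasn lay closest to it (r = 0.956), Scd2 had 0.624, and Elovl6 ran against it (r = -0.651). Among the 6435 genes bright enough to be compared (mean of at least 100), the nearest were G3bp2 (r = 0.978), Dld (0.965), Pdhx (0.960), C730049O14Rik (0.955) and Retsat (0.955). Dld and Pdhx encode parts of the pyruvate dehydrogenase complex, and Retsat encodes retinol saturase. At 192 h Dld read 475 in SETD5 cells and 1179 in empty virus cells, and Pdhx 86.7 and 265. All 14 points share the virus and hour structure of the study, so the coefficients carry no p. Within SETD5 cells some pairs of members ran opposite, such as Scd2 and Me1 (r = -0.82, against 0.43 in empty virus cells). Others ran alike there, such as Fasn and Scd1 (0.78, against 0.95).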

How the data were processed

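Affymetrix mouse expression arrays measured biotin-labelled cRNA from 14 samples of 3T3-L1 cells. The authors deposited an intensity on a linear scale for every probe set of an array, an average difference from the GeneChip Analysis Suite. With 2% of the values trimmed from either tail, the mean of each array was 100, which shows scaling, and their distributions showed no log or quantile step. Their scaling target was not stated. The number of arrays limits the precision.

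Of 45100 probe sets, 64 were controls, 34944 had 1 symbol in the platform annotation, 932 several and 9160 none. An offset of 16 was added before log2. Linear models were fitted with limma 3.58.1 in R 4.3.3 over all 8682 tested genes (lmFit, eBayes, two-sided, Benjamini-Hochberg adjusted p under 0.05 called), and checked on simulated data. Hour entered as a block, since both viruses were sampled at the hours named in the labels: the deviations of same-hour arrays correlated at 0.708 to 0.895. Errors are limma standard errors unless SD is stated. Members, gene lists and windows were chosen with earlier results of these data known. Named genes were all members, up to 4 of each list by the size of the late effect, a few regulators, and the 5 genes most like the members. The 36 and 48 h window, and the alternatives run on the 96 and 192 h window, were added after seeing the data. Motifs were searched on both strands with Python 3.11.15. Alternatives were quantile normalization, a common median, offsets of 4 and 64, no filter, a filter of 100, other probe sets, every probe set tested on its own, a prior with trend and robust variances, no replicate block, and each hour left out.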

Additional observations from a re-analysis of the deposited data

Results flagged for a closer look

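The lowest of the 7 hourly differences stood apart from the other 6 for 3 members. Acly had -1.14 at 192 h, Acss2 -2.17 at 192 h and Scd1 -2.23 at 96 h (log2, SETD5 minus empty virus, 1 array each). Chance marks about 1 in 20 groups of 7 values that do not depend on hour. These differences follow a time course, so that rate does not hold for them.

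The virus effect at 96 and 192 h differed from that of the early hours, by a test of the difference itself, for Fasn (-2.27), Acaca (-0.85), Scd1 (-1.47), Scd2 (-0.72) and Me1 (-1.56). It differed from that of 36 and 48 h for Fasn (-1.80) and Me1 (-1.40), a contrast chosen after seeing the data. Thrsp had -2.68 and -2.29, given as a description because it passed the filter only through 96 and 192 h. Leaving Thrsp aside, Fasn and Me1 were the members with calls in both contrasts.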

How the results depend on the processing

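The count of members called over 36 to 192 h was 5. It was 3 with quantile normalization, 3 with an offset of 4, 0 with no filter, where 18193 genes were tested, 0 with no replicate block, 9 with 96 and 192 h as the late window and 0 with 36 and 48 h, and 0 to 7 with each hour left out. The count over 96 and 192 h was 9. It was 0 with no replicate block and 5 to 9 with each hour left out. The difference from the early hours gave 6 members, Thrsp among them, with 96 and 192 h as the late window, against 0. The numbers of members called against 0 h were 2 at 12 h with quantile normalization, a common median or an offset of 64, 2 at 36 h with a common median, 2 at 48 h with an offset of 4 or of 64, and 3 at 192 h with no filter. Apart from the alternative windows, no share of all genes called is given for these settings. The counts cannot be set against a general gain or loss of calls, and the causes were not tested.

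Of 1566 values of single members under alternatives, 1436 kept their direction and their side of the threshold, 75 lost a call, 22 gained one and 33 changed sign, none of the last being a called value. With quantile normalization these were Acly at 48 h (-0.029) and 96 h (-0.031) against 0 h, and late minus early within SETD5 cells for Scd2 (-0.077). With other probe sets the early virus effect turned for Acly (-0.17 and -0.031), Me1 (0.16), Thrsp (0.084) and Acss2 (-0.038). So did the change against 0 h of Acly at 48 h (-0.0020) and 24 h (0.056), Me1 at 48 h (0.076) and Thrsp at 12 h (-0.34) and 24 h (-0.21), and late minus early within SETD5 cells of Scd1 (-0.15), Scd2 (-0.065) and Me1 (0.27). With 36 and 48 h as the late window Acaca had 0.024 and Acss2 0.086. With each hour left out the early effect ran from -0.022 to 0.20 for Fasn, from -0.082 to 0.0041 for Acaca and from -0.051 to 0.013 for Thrsp. Late minus early within SETD5 cells ran from -0.16 to 0.34 for Fasn, from -0.070 to 1.07 for Scd1, from -0.11 to 0.15 for Scd2, from -0.33 to 0.17 for Me1 and from -0.31 to 0.00054 for Acaca. Within empty virus cells it ran from -0.032 to 0.45 for Acaca, and the effect over all hours from -0.39 to 0.033 for Acss2.

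A low intensity of Acacb throughout, and of Thrsp before 96 h, leaves their differences at those hours to the offset.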
